A study of Sus scrofa with 2 samples.

Results

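The 10 genes described here are the ligand AMH, its receptor AMHR2, the BMP receptors BMPR1A, BMPR1B and BMPR2, the signal carriers SMAD1 and SMAD5, and the target genes ID1, ID2 and ID3. They were chosen by symbol from the 22342 genes of the deposited list, and each was found in both matrices. They were followed in somatic cells of 2 antral follicles of a Landrace × Yorkshire pig aged 210 days, both over 7 mm in diameter. According to the methods of the study, this pig had received pregnant mare serum gonadotropin to stimulate its follicles, and the cells were flushed from the opened follicle and freed from the cumulus-oocyte complex with hyaluronidase, so both follicles share 1 animal and 1 treatment. Each follicle made 1 single-cell library, named AF75 (antral follicle 1) and AF76 (antral follicle 2), so there is no replicate follicle and no p-value can be given. The intervals below are 95% intervals for counting error alone.

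AMH and the BMPs belong to the TGF-β superfamily. A dimeric ligand joins a type II receptor (AMHR2 for AMH, BMPR2 for many BMPs) with a type I receptor (BMPR1A, also called ALK3, or BMPR1B, also called ALK6). The type I receptor then phosphorylates SMAD1, SMAD5 and SMAD9, which enter the nucleus with SMAD4 and switch on the ID genes. ID proteins carry a helix-loop-helix but no DNA-binding part, and hold E proteins such as TCF3, TCF4 and TCF12 away from DNA. In the ovary AMH is known as a product of granulosa cells of small growing follicles, and its level falls as follicles become large. BMPR1B is known in sheep for the Booroola mutation, which raises ovulation rate.

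The deposited matrices held 14289 barcodes in AF75 and 15548 in AF76. With 2000 to 5000 genes and under 7% mitochondrial UMIs, 9362 barcodes (65.5%) remained in AF75 and 7843 (50.4%) in AF76. Between 4148 and 32340 UMIs were counted per cell in AF75 (median 11254.5), and between 3487 and 32958 in AF76 (median 13902). Of the 17205 cells, 18 barcodes occurred in both follicles. Levels are given as CPM, the UMIs of a gene per 1000000 UMIs, summed over a group of cells. A gene was called measured with at least 200 UMIs in 1 of the groups compared, and past the threshold at a ratio of 1.5 or more in either direction. Because UMIs tag the 3′ end of a transcript and are not scaled by length, levels are compared between cells and not between genes.

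Clustering without the 10 genes and without the other genes of their pathway gave 9 clusters, each called by 2 of its leading genes. The labels say only that the cells are somatic cells of the ovary. The granulosa markers INHA and CYP11A1 were found in each cluster. Of the 5 granulosa markers, 1 had no UMI in TECR/NCCRP1, and 1 had none in CXCL10/RSAD2. In the CEMIP/CCDC80 cluster 1 of the 5 was at its highest. The summed level of the 5 was 17830 to 34730 CPM in 8 clusters and 4962 CPM in the CEMIP/CCDC80 cluster. The TGFB3/ENPP2 cluster was the largest, with 3367 cells of AF75 and 3608 of AF76, followed by the INSIG1/DKK1 cluster with 3188 and 2534. The SLC10A4/ARPP21 cluster, in which 3 of 3 cumulus markers (VCAN, SHAS2, TNFAIP6) were at their highest, held 1571 cells of AF75 (16.8%) and 134 of AF76 (1.71%). The CEMIP/CCDC80 cluster held 684 cells of AF76 (8.72%) and 0 of AF75, a count that bounds its share there at 0.0394% by the Clopper-Pearson method. As this cluster is from 1 library only, the cluster and the library cannot be told apart. The other clusters were STAR/DKK2, TOP2A/CDCA8 (cycling cells, 5 of 5 markers at their highest), ALDH1A2/SLC24A1, TECR/NCCRP1 and CXCL10/RSAD2 (4 of 4 interferon response markers at their highest). No UMI of the 4 oocyte markers was counted in any cluster.

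The sequences just before the ID genes are shown because these genes are the readout of the pathway and because their levels differed between clusters. They were read from the pig genome Sscrofa11.1 at the gene starts given by RefSeq, in the direction of the gene, 250 bases each. The windows are chr17:35316268-35316517 on the plus strand for ID1, chr3:127503208-127503457 on the minus strand for ID2 and chr6:81424170-81424419 on the minus strand for ID3. Capitals mark TATAAA on either strand, a motif that was added after the sequences had been seen.
ID1: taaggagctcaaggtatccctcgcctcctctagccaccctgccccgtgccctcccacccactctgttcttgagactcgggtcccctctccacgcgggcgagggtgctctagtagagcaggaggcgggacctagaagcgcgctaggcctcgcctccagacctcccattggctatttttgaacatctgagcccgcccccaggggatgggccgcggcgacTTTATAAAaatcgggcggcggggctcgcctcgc
ID2: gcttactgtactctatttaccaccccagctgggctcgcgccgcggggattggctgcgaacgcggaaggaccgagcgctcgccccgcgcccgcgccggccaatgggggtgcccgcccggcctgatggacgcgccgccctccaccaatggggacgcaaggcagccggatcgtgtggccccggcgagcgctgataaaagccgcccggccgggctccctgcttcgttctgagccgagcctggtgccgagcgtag
ID3: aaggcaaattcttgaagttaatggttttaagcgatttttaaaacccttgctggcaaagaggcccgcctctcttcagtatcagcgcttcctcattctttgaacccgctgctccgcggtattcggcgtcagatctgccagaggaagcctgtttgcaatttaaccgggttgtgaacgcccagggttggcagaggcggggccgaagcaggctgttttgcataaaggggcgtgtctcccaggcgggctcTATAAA
In ID1 the motif was found on both strands as overlapping matches, the first base at -33 from the gene start. In ID3 it lay at -6, and in ID2 it was not found. TATAAA was present in 9.77% of 19559 such windows of protein-coding genes, and in 2 of the 10 genes. The BMP-linked letters GGCGCC and the SMAD palindrome GTCTAGAC were searched on both strands from 250 bases before to 50 after each start. GGCGCC was found in 19.8% of all windows and in those of 3 of the 10 genes (BMPR1A, BMPR1B and SMAD5), and GTCTAGAC in 0.194% of all windows and in 0 of the 10. Neither was found in the windows of ID1, ID2 and ID3.

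In the 2000 bases before the start, a width chosen after the shorter windows had been read, GGCGCC was present in 29.8% of genes and GTCTAGAC in 1.12%. Among the ID genes, ID1 held 1 match to GGCGCC, shown in capitals within chr17:35315487-35315572 on the plus strand, with its first base at -991.
ID1 upstream: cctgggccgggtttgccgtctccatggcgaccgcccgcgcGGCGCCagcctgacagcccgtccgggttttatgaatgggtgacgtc
ID2 and ID3 held neither motif at this width. A match is a description of letters, and binding was not measured here.

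Almost no transcript of AMH, the ligand, was counted. AMH (ENSSSCG00000035812, chr2:76415564-76418315 on the plus strand, between SF3A2 and JSRP1) gave 0 UMIs in the 9362 cells of AF75, which allows up to 0.027 CPM, and 1 UMI in AF76 (0.00918 CPM), in a cell of the CEMIP/CCDC80 cluster. Over all deposited barcodes the counts were also 0 and 1. A level below these limits was not detectable at this depth, and no comparison of AMH between cells or follicles was possible.

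AMHR2, the type II receptor used by AMH alone, was rare and was higher in AF76. AMHR2 (ENSSSCG00000000271, chr5:18642212-18648859, plus strand) had 226 UMIs in AF75 and 573 in AF76, or 2.03 and 5.26 CPM, a ratio of 2.59 (2.22 to 3.03), or 1.72 (1.45 to 2.04) without the CEMIP/CCDC80 cluster. A UMI was seen in 2.28% of cells of AF75 and 6.15% of AF76. Thinning to 5000 UMIs per cell left out cells with fewer, and kept 594 of the 684 cells of the CEMIP/CCDC80 cluster. Among the 9343 cells kept in AF75 and the 7738 kept in AF76, a UMI was seen in 0.953% and 3.02%. Immune-like barcodes, which should lack AMHR2, held 0 of 4 in AF75 and 0 of 14 in AF76 (median 18452.5 and 7088 UMIs), too few to bound these shares, since 0 of 14 allows up to 23.2% by the Clopper-Pearson method.

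The highest level of AMHR2 was found in the CEMIP/CCDC80 cluster. There it had 42.84 CPM, against 3.50 CPM in the other cells of AF76, a ratio of 12.2 (10.3 to 14.6), and it was seen in 20.8% of cells. With 4.48% of the UMIs of AF76, this cluster held 36.5% of its AMHR2 UMIs. In the remaining clusters AMHR2 ranged from 0.408 CPM (TOP2A/CDCA8, 3 UMIs) to 8.63 CPM (TECR/NCCRP1, 7 UMIs) in AF75, and from 0.545 CPM (SLC10A4/ARPP21, 1 UMI) to 4.99 CPM (TECR/NCCRP1, 10 UMIs) in AF76. The intervals of neighbours in this order overlapped throughout in AF75, and in AF76 everywhere below the CEMIP/CCDC80 cluster. Within the TGFB3/ENPP2 cluster, the ratio between the follicles was 1.45 (1.16 to 1.81), from 3.12 to 4.51 CPM.

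AMHR2 was lower in the cumulus-like cluster of AF75 than in its other cells. The SLC10A4/ARPP21 cluster had 11 AMHR2 UMIs in AF75 (0.656 CPM), against 2.28 CPM in the other cells of AF75, a ratio of 0.288 (0.142 to 0.526). The log2 ratio of -1.80 ranged from -2.56 with thinned cells to -0.82 with another random seed. With that seed the matched cluster had 1.20 CPM, and a cluster led by TMEM178A and HBB was lower (0.478 CPM). In AF76 it had 1 UMI in 134 cells, so a difference between the follicles was not detectable there (ratio 0.831, 0.0193 to 5.72).

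Cells with an AMHR2 UMI mostly also held a UMI of a type I receptor, at a share close to that of all cells. In AF75, 95.3% of 213 cells with an AMHR2 UMI also had a UMI of BMPR1A or BMPR1B, beside 94.4% of all cells. In the CEMIP/CCDC80 cluster of AF76 this was 76.1% of 142 cells, beside 74.6% of all its cells, and in the other cells of AF76 it was 90.9% of 340 cells, beside 91.5%. A BMPR1B UMI was also seen in immune-like barcodes, in 3 of 4 in AF75 and 7 of 14 in AF76. The part of free RNA in these shares was not tested. Cells with AMHR2 had a median of 12368 UMIs in AF75, against 11254.5 in all its cells, of 7062.5 in the CEMIP/CCDC80 cluster, against 6439, and of 15282 in the other cells of AF76, against 14329.

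BMPR1B, a type I receptor for BMPs, was found in most cells and was lower in AF76. BMPR1B (ENSSSCG00000029621, chr8:124536648-125035841, minus strand) had 843.3 CPM in AF75 and 552.9 CPM in AF76, a ratio of 0.656 (0.649 to 0.662). It was seen in 91.9% and 86.1% of cells, and in 80.8% and 70.1% after thinning. Without the CEMIP/CCDC80 cluster the ratio was 0.675, just short of the threshold.

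By counting error alone, the order of the clusters was clearer in AF75 than in AF76. In AF75 it ran from 1667 CPM in the SLC10A4/ARPP21 cluster through TOP2A/CDCA8 (1072), STAR/DKK2 (925.2), ALDH1A2/SLC24A1 (845.5), INSIG1/DKK1 (754.7), TGFB3/ENPP2 (540.5) and CXCL10/RSAD2 (463.3) to 287.1 CPM in TECR/NCCRP1. Only the intervals of TGFB3/ENPP2 and CXCL10/RSAD2 overlapped among neighbours. These intervals leave out the spread between cells, and intervals that took it in would be wider. Over all thinned cells, with differences between clusters included, the variance of BMPR1B was 5.42 times its mean in AF75 and 4.59 times in AF76. In AF76 the SLC10A4/ARPP21 (975.3 CPM) and STAR/DKK2 (949.3 CPM) clusters led with overlapping intervals, the intervals from ALDH1A2/SLC24A1 (671.7 CPM) through TOP2A/CDCA8 to INSIG1/DKK1 (566.7 CPM) each overlapped the next, and the CEMIP/CCDC80 cluster was lowest with 201.1 CPM. The place of CXCL10/RSAD2 in AF76 (711.6 CPM) rested on 1 of 22 cells, which held 72 of 226 UMIs, and without it the level was 507.1 CPM (430.0 to 594.0).

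The difference between the follicles was not the same in each cluster. BMPR1B was lower in AF76 in the SLC10A4/ARPP21 cluster (ratio 0.585, 0.557 to 0.614), in TOP2A/CDCA8 (0.565, 0.533 to 0.598) in INSIG1/DKK1 (0.751, 0.738 to 0.764) and in ALDH1A2/SLC24A1 (0.794, 0.742 to 0.85). It was close to equal in TGFB3/ENPP2 (0.961, 0.944 to 0.979), STAR/DKK2 (1.03, 0.988 to 1.07) and TECR/NCCRP1 (1.1, 0.944 to 1.28). In all, 5 of the 8 shared clusters had an interval below 1. In CXCL10/RSAD2, with 25 and 22 cells, the ratio was 1.54 (1.24 to 1.91), but 1.18 (0.929 to 1.51) with the cell that held most BMPR1B UMIs left out in each follicle. The SLC10A4/ARPP21 cluster held 29.8% of the BMPR1B UMIs of AF75 with 15.1% of all its UMIs, and 2.97% of those of AF76. Cumulus and mural granulosa markers also differed between the follicles. VCAN was lower and AREG higher in AF76 in 8 of the 8 shared clusters, including those in which BMPR1B was level or higher, such as STAR/DKK2 (VCAN 564.4 and 242.8 CPM, AREG 3635 and 6048 CPM) and CXCL10/RSAD2 (VCAN 430.9 and 188.9 CPM, AREG 5161 and 5303 CPM). From AF75 to AF76 in SLC10A4/ARPP21, the cumulus markers VCAN (7126 and 1686 CPM), TNFAIP6 (3693 and 416.0 CPM) and SHAS2 (345.9 and 48.52 CPM) were lower, and the mural markers AREG (382.1 and 3732 CPM) and CYB5A (112.1 and 297.1 CPM) were higher. In TOP2A/CDCA8 all 5 differed in the same directions, with VCAN at 3115 and 435.7 CPM and AREG at 1471 and 3595 CPM. High doublet scores were given to 2.04% of the SLC10A4/ARPP21 cells of AF75 and 11.9% of those of AF76. The part of these differences in the ratios was not tested.

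Immune-like barcodes, in which BMPR1B serves as a gauge of free RNA, had 153.4 CPM in AF75 (3 of 4 barcodes, with 12 of the 21 UMIs in the 1 barcode that passed the limits on cells) and 76.97 CPM in AF76 (7 of 14). The part of free RNA in the BMPR1B levels was not tested. The level of these barcodes in AF76 rests on 8 UMIs of BMPR1B. The CEMIP/CCDC80 cluster lay above it, and its BMPR1B ratio to the other cells of AF76 was 0.353 (0.331 to 0.376). For INHA, also found in these barcodes, the cluster lay below their 5349 CPM in AF76.

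BMPR1A and BMPR2 spanned a narrower range across clusters than BMPR1B, and neither passed the threshold between the follicles over all cells. BMPR1A (ENSSSCG00000010360, chr14:87743270-87891790, plus strand, whose end overlaps MMRN2 on the other strand by 206 bases), the other type I receptor, had 35.96 CPM in AF75 and 33.37 CPM in AF76, a ratio of 0.928 (0.887 to 0.971). Over the 8 clusters of AF75 it lay between 22.68 and 40.41 CPM. In AF76 the CEMIP/CCDC80 cluster stood above the rest with 57.81 CPM, a ratio of 1.79 (1.58 to 2.03) to the other cells.

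BMPR2 (ENSSSCG00000016113, chr15:105971577-106132496, plus strand), a type II receptor for BMPs, had 49.12 CPM in AF75 and 45.17 CPM in AF76, a ratio of 0.92 (0.885 to 0.956). Its lowest levels were in the TECR/NCCRP1 cluster, with 27.11 CPM in AF75 (22 UMIs) and 17.95 CPM in AF76 (36 UMIs), where BMPR1A and both SMAD genes were low as well. Its highest level was 65.39 CPM, in the CEMIP/CCDC80 cluster, a ratio of 1.48 (1.32 to 1.66) to the other cells of AF76. The interval of this level (58.4 to 73.0) overlapped those of ALDH1A2/SLC24A1 in AF76 (44.3 to 63.2) and CXCL10/RSAD2 in AF75 (37.1 to 96.1). The TECR/NCCRP1 cluster had few leading genes of any size, none above a fold of 1.88.

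SMAD1 and SMAD5, which carry the signal to the nucleus, were lower in AF76 over all cells, without passing the threshold. SMAD1 (ENSSSCG00000009040, chr8:82907557-82987909, minus strand) had 36.32 CPM in AF75 and 29.31 CPM in AF76, a ratio of 0.807 (0.77 to 0.846). It was below 1 in 8 of 8 clusters that both follicles shared, with an interval wholly below 1 in 3 of them. In AF75 it was highest in the SLC10A4/ARPP21 cluster, with 59.61 CPM against 32.19 CPM in the other cells (ratio 1.85, 1.72 to 1.99). Its log2 ratio of 0.89 became 0.49 with 6 clusters and 0.54 with another random seed, both short of the threshold. In AF76 this cluster had 37.62 CPM (ratio between follicles 0.631, 0.487 to 0.806). In the CEMIP/CCDC80 cluster it was 1.91 times the other cells (1.67 to 2.16).

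SMAD5 (ENSSSCG00000014319, chr2:138287635-138344092, plus strand) had 53.76 CPM in AF75 and 45.8 CPM in AF76, a ratio of 0.852 (0.82 to 0.885). Apart from TECR/NCCRP1 (28.34 and 30.91 CPM), its level lay between 42.12 and 70.26 CPM in each cluster of either follicle. Between the CEMIP/CCDC80 cluster and the other cells its ratio was 1.33 (1.18 to 1.5). In the SLC10A4/ARPP21 cluster of AF75 it was 0.948 (0.881 to 1.02), where SMAD1 differed.

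**Figure D1:**
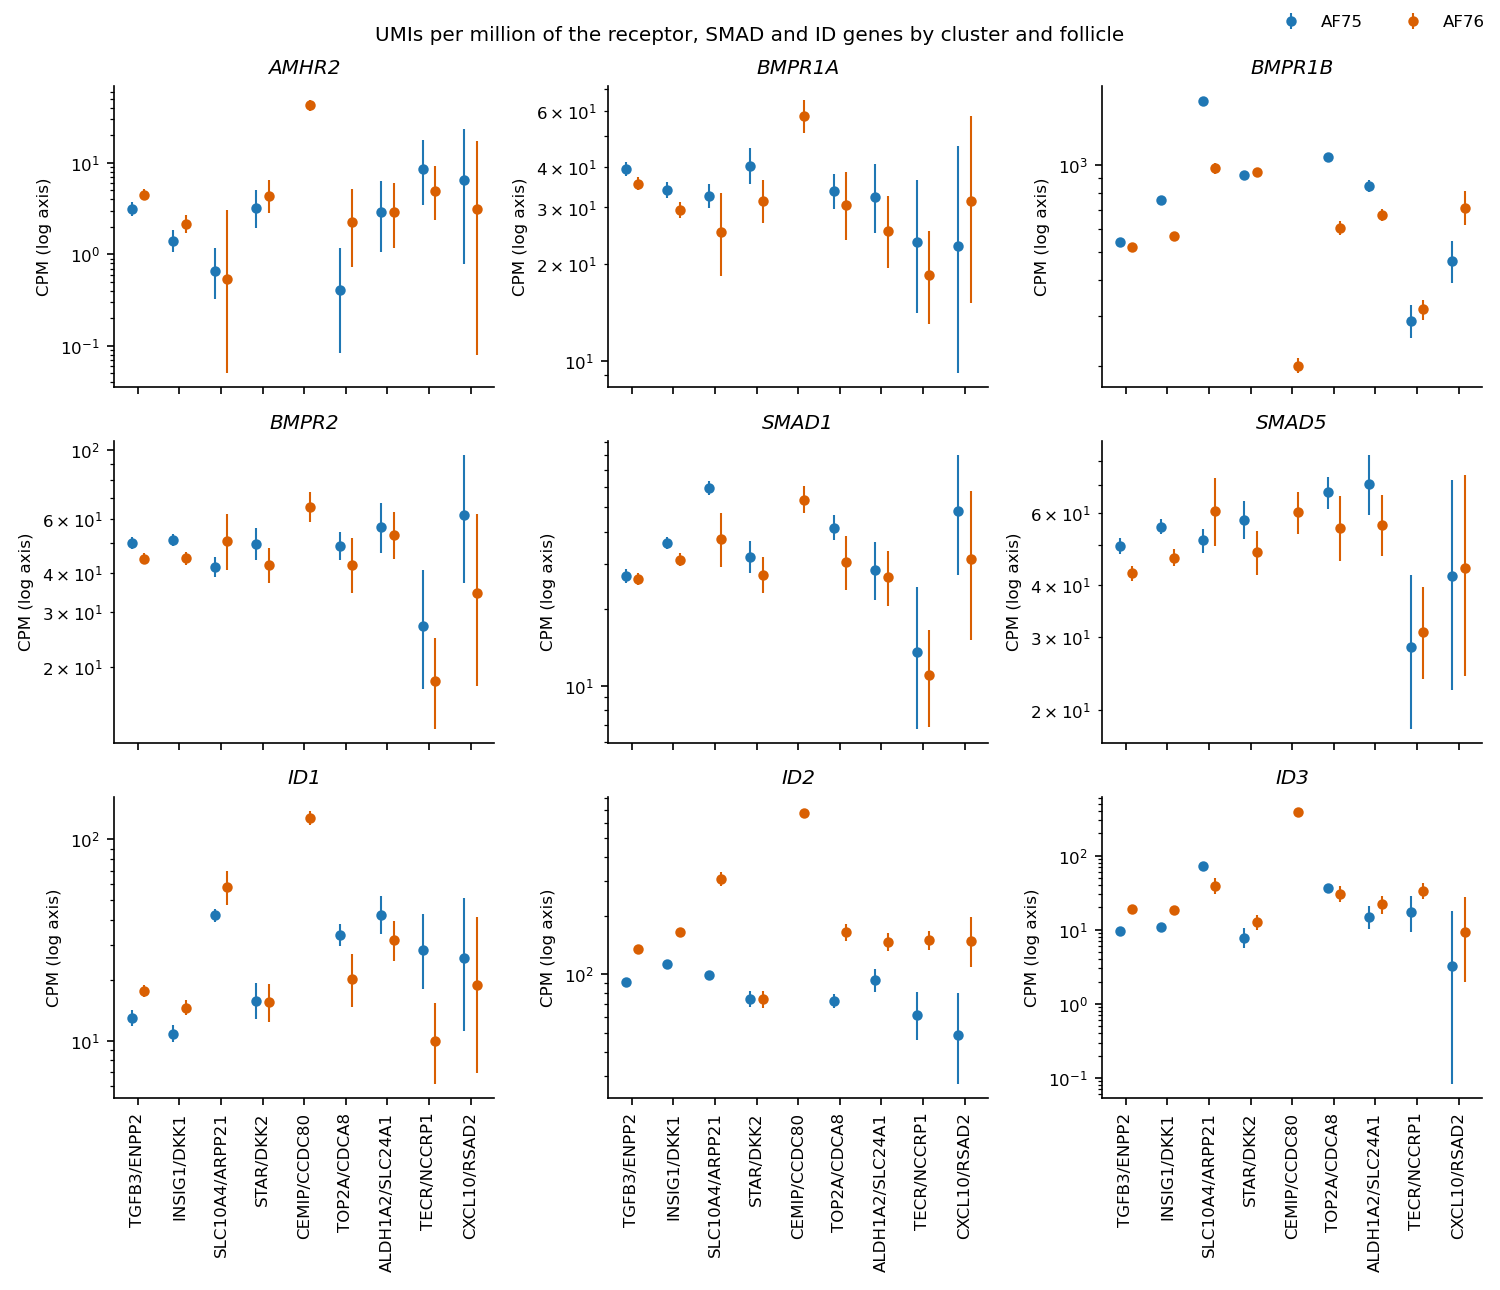
Level of 9 of the 10 genes in each cluster, in CPM on a log axis, for AF75 (blue) and AF76 (orange), with bars for the exact 95% Poisson interval of the summed UMIs (lower ends are cut at 0.05 CPM for display). BMPR1B ran from 201.1 to 1667 CPM, while ID1, ID2, ID3 and AMHR2 were highest in the CEMIP/CCDC80 cluster, which holds cells of AF76 only (for ID1 not with the borders given by 6 clusters or another random seed). With no integration, 33 cells of AF76 led by WNT6 and KRT8, 32 of them from this cluster, stood apart at 61.66 CPM of AMHR2 and 268.2 CPM of ID1, above the 40.69 and 127.0 CPM of the matched cluster. Their levels of ID2 (268.2 CPM) and ID3 (169.6 CPM) lay below the 699.6 and 401.7 CPM of the matched cluster.

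The ID genes, targets of the pathway, were high in the cluster that only AF76 held. In the CEMIP/CCDC80 cluster ID3 had 387.4 CPM, against 19.2 CPM in the other cells of AF76, a ratio of 20.2 (18.9 to 21.5). ID1 had 128.1 against 17.42 CPM (7.36, 6.71 to 8.06), and ID2 had 669.9 against 147.0 CPM (4.56, 4.39 to 4.73). This cluster held 48.6% of the ID3 UMIs of AF76, 25.6% of ID1 and 17.6% of ID2.

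Counting the genes together, 6 of the 9 measured genes were past the threshold upward in the CEMIP/CCDC80 cluster (AMHR2, BMPR1A, SMAD1, ID1, ID2 and ID3) and 1 downward (BMPR1B), with a median log2 ratio of 0.93. This is read against all genes, of which 53.0% were past the threshold in the same comparison, with a median log2 ratio of 0.36. The middle 90% of all genes lay between -1.62 and 1.99, so AMHR2 (3.61), ID1 (2.88), ID2 (2.19) and ID3 (4.33) stood outside this range. The cluster was made from the same cells, and these values are a description.

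Other features of the CEMIP/CCDC80 cluster moved with these levels, and their part in the result was not tested. Its cells were shallow, with a median of 6439 UMIs against 14329 in the other cells of AF76. INHA was at 2344 CPM, against 11550 CPM or more in each other cluster, and CYP11A1 at 1933 CPM. The immune-like barcodes of AF76 had a higher INHA level, 5349 CPM. The granulosa markers did not all go the same way, as 1 of the 5 was at its highest in this cluster. Their summed level was 4962 CPM, against 17830 CPM or more in each other cluster. Of the theca or stromal markers 6 of 7 were at their highest here, with a summed level of 103.3 CPM (ACTA2 60.27, DCN 18.04 and CYP17A1 0.41 CPM) against at most 6.09 CPM elsewhere. Of the immune markers 6 of 8 were at their highest, with a sum of 72.16 CPM against at most 17.83 CPM elsewhere. PTPRC had 4.92 CPM and CD3E was at 0, so most of this sum lay in the other immune markers. Of the endothelial markers 2 of 5 were at their highest, with a sum of 26.85 CPM (VWF 22.14 CPM, CDH5 at 0), but SLC10A4/ARPP21 had a higher sum of 45.14 CPM, nearly all of it KDR (47.09 CPM in its AF75 cells). SLC10A4/ARPP21 also had the highest sum of red blood cell markers, 42.13 CPM, with HBB at 1.61 CPM in its AF75 cells and 408.9 CPM in its AF76 cells, and the part of these markers in its levels was not tested. In the CEMIP/CCDC80 cluster, FSHR, a granulosa marker, had 37.72 CPM.

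After thinning to 5000 UMIs per cell, which left out cells with fewer, the ID genes were still widespread in this cluster. Of its 684 cells 594 were kept. ID1 was seen in 30.0% of these, ID2 in 75.1% and ID3 in 63.1%, whereas ID3 was seen in 6.8% of the TGFB3/ENPP2 cells of AF76. Summed over the 3 genes, 13.6% of the cells had no UMI and 21.5% had 10 or more, with a median of 5 and a highest value of 43. All 3 were found in 129 of 594 cells (21.7%), against 10 of 132 cells (7.58%) of SLC10A4/ARPP21 and 7 of 3603 cells (0.194%) of TGFB3/ENPP2 in AF76, and 36 of 1567 cells (2.3%) of SLC10A4/ARPP21 in AF75. Of 14 immune-like barcodes of AF76 (median 7088 UMIs), 1 held an ID1 UMI, 6 held ID2 and 2 held ID3. Of 4 in AF75, 2 held ID2 and 0 held ID1 or ID3. The part of free RNA in the shares of cells was not tested.

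**Figure D2:**
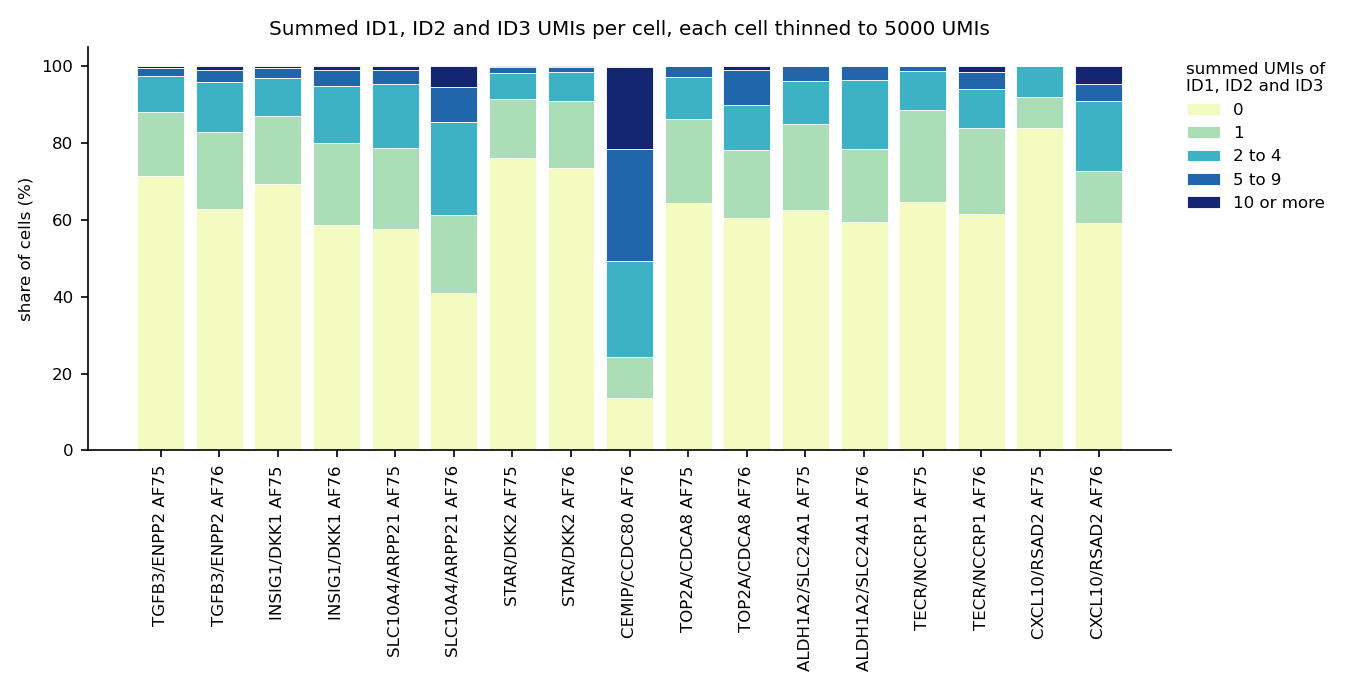
Share of cells (%) by the summed UMIs of ID1, ID2 and ID3, after thinning to 5000 UMIs per cell (cells with fewer were left out), for each cluster and follicle (groups of at least 20 cells). In the CEMIP/CCDC80 cluster 21.5% of cells had 10 or more, while in the TGFB3/ENPP2 cluster 71.5% of cells of AF75 and 62.9% of AF76 had none.

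In AF75, ID3 was highest in the cumulus-like SLC10A4/ARPP21 cluster, which for ID2 was close to the other cells. ID3 had 72.25 CPM there against 12.27 CPM in the other cells (5.89, 5.43 to 6.39), and ID1 had 42.03 against 14.73 CPM (2.85, 2.6 to 3.13). For ID1 the ALDH1A2/SLC24A1 cluster had 42.35 CPM (34.0 to 52.2), but 24 of its 88 UMIs lay in 1 of 179 cells, without which the level was 31.12 CPM (24.0 to 39.7), and TOP2A/CDCA8 had 33.56 CPM. ID2 had 99.25 against 97.25 CPM (1.02, 0.968 to 1.08). The cluster held 51.1% of the ID3 UMIs of AF75 and 33.6% of ID1. For the 9 measured genes, 4 were past the threshold upward (BMPR1B, SMAD1, ID1 and ID3) and 1 downward (AMHR2), beside 27.7% of all genes. The call of SMAD1 was lost with 6 clusters and with another random seed, and those of ID1 and ID3 with no integration of the follicles (log2 ratios -0.07 and 0.49).

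Where the border of this cluster was drawn changed its ID levels. With no integration of the follicles, 424 cells of AF75 led by RBP4, PTGS2 and ALPK2, 423 of them from the SLC10A4/ARPP21 cluster, formed a cluster with 163.2 CPM of ID3 and 91.39 CPM of ID1. The cluster that took 1147 further cells of SLC10A4/ARPP21 had 27.93 CPM of ID3 and 18.07 CPM of ID1. BMPR1B had 1682 and 1537 CPM in them. With 6 clusters the matched cluster had 62.74 CPM of ID1 in AF75 and 198.6 CPM in AF76, and with another random seed 59.69 and 144.5 CPM, against 42.03 and 57.79 CPM in SLC10A4/ARPP21. With both of these borders the ID1 level of its AF76 cells (70 UMIs in 32 cells and 76 in 44) lay above the 128.6 CPM of the matched CEMIP/CCDC80 cluster. In both, 24 of the UMIs lay in 1 cell, without which the levels were 134.7 CPM (98.6 to 180.0) and 101.0 CPM (75.4 to 132.0).

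ID1 (ENSSSCG00000037016, chr17:35316518-35317742, plus strand) over all cells had 18.84 CPM in AF75 and 22.37 CPM in AF76, a ratio of 1.19 (1.12 to 1.26), or 0.924 (0.867 to 0.985) without the CEMIP/CCDC80 cluster. By cluster it was higher in AF76 in TGFB3/ENPP2 (1.37, 1.22 to 1.52) and INSIG1/DKK1 (1.35, 1.18 to 1.53), and lower in TOP2A/CDCA8 (0.602, 0.428 to 0.829) and TECR/NCCRP1 (0.352, 0.183 to 0.67, from 23 and 20 UMIs). In SLC10A4/ARPP21 the ratio was 1.37 (1.11 to 1.69), but 1.11 (0.869 to 1.39) with the cell that held most ID1 UMIs left out in each follicle, as 1 cell of AF76 held 24 of 106. With the borders given by 6 clusters or another random seed it was 3.16 and 2.42, and 2.23 (1.61 to 3.01) and 1.75 (1.3 to 2.33) without those cells.

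ID2 (ENSSSCG00000008645, chr3:127500759-127503207, minus strand) was higher in AF76 over all cells and in most clusters. Over all cells it had 97.55 CPM in AF75 and 170.4 CPM in AF76, a ratio of 1.75 (1.71 to 1.79), and 1.51 (1.47 to 1.54) without the CEMIP/CCDC80 cluster. It was higher in AF76 in 7 of the 8 shared clusters, each with an interval above 1. The ratio was 1.47 in TGFB3/ENPP2 and in INSIG1/DKK1 (both 1.41 to 1.53), 2.26 in TOP2A/CDCA8 and 3.11 (2.82 to 3.42) in SLC10A4/ARPP21, where the level went from 99.25 to 308.6 CPM. In STAR/DKK2 it was 0.994 (0.866 to 1.14), with 74.69 and 74.24 CPM.

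ID3 (ENSSSCG00000039514, chr6:81422541-81424169, minus strand) changed direction with the cells included. Over all cells it had 21.32 CPM in AF75 and 35.7 CPM in AF76, a ratio of 1.67 (1.59 to 1.76). Without the CEMIP/CCDC80 cluster it had 19.2 CPM in AF76, a ratio of 0.901 (0.848 to 0.957). Within the TGFB3/ENPP2 cluster it was nevertheless higher in AF76, from 9.49 to 18.75 CPM (1.98, 1.75 to 2.23), and likewise in INSIG1/DKK1, from 10.92 to 18.29 CPM (1.68, 1.48 to 1.9). In SLC10A4/ARPP21, which made up 16.8% of the cells of AF75 and 1.71% of those of AF76, it was lower, from 72.25 to 39.25 CPM (0.543, 0.422 to 0.689), but this rested on the border of the cluster. The matched cluster had 115.0 CPM in AF75 and 116.3 CPM in AF76 (32 cells) with 6 clusters, and 110.2 and 89.35 CPM (44 cells) with another random seed, neither past the threshold. A sum over all cells thus joins a difference in the mix of clusters with differences inside them.

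RNA from the CEMIP/CCDC80 cells in other clusters was gauged by CEMIP itself, a measure that does not tell free RNA from whole cells placed across a border. In the TGFB3/ENPP2 cells of AF76 CEMIP had 7.54 CPM, or 0.873% of its level of 862.8 CPM in its own cluster. The same share of the ID3 level of that cluster comes to 3.38 CPM, beside a difference of 9.27 CPM between the follicles in TGFB3/ENPP2. For ID2 it comes to 5.85 CPM beside 43.0 CPM, for ID1 to 1.12 CPM beside 4.75 CPM, and for AMHR2 to 0.374 CPM beside 1.39 CPM. In INSIG1/DKK1 the share comes to 3.33 CPM of ID3 beside a difference of 7.37 CPM, and to 0.368 CPM of AMHR2 beside 0.754 CPM. In ALDH1A2/SLC24A1 it comes to 8.76 CPM of ID3, more than the difference of 7.08 CPM. These shares use the levels in the CEMIP/CCDC80 cluster, where CEMIP was above ID3. In the barcodes of AF76 with under 2000 genes, ID3 (144.9 CPM) was above CEMIP (119.0 CPM). Scaled by those levels the ID3 shares would be larger, so the values given are no upper limit. With no integration, 80 cells of AF76 led by HBB, CCDC80 and CEMIP formed a cluster of their own. Of these, 50 came from INSIG1/DKK1, and the 80 had 106.4 CPM of ID3, 441.3 CPM of ID2 and 15.81 CPM of AMHR2. The part of free RNA and of such cells in these differences was not tested further.

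Over all cells 4 of the 9 measured genes were past the threshold between the follicles, with AMHR2, ID2 and ID3 higher in AF76 and BMPR1B lower, beside 5.65% of all 10049 measured genes. Without the CEMIP/CCDC80 cluster 2 remained past it, AMHR2 (1.72, 1.45 to 2.04) and ID2, beside 5.39% of all genes. Within the TGFB3/ENPP2 cluster 1 was past it, ID3, beside 1.37%. Within SLC10A4/ARPP21 it was 1 upward (ID2) and 3 downward (BMPR1B, SMAD1 and ID3) of 8 measured, beside 19.1% of all genes, and this comparison rests on 134 cells of AF76 that integration placed with those of AF75, and the cumulus and mural markers differed as given for BMPR1B. With no integration, the 2 clusters that took most of its AF75 cells (1759 and 424 cells of AF75) held 17 and 0 cells of AF76, so the comparison could not be made there. The call of ID3 among them was lost with 6 clusters and with another random seed.

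**Figure D3:**
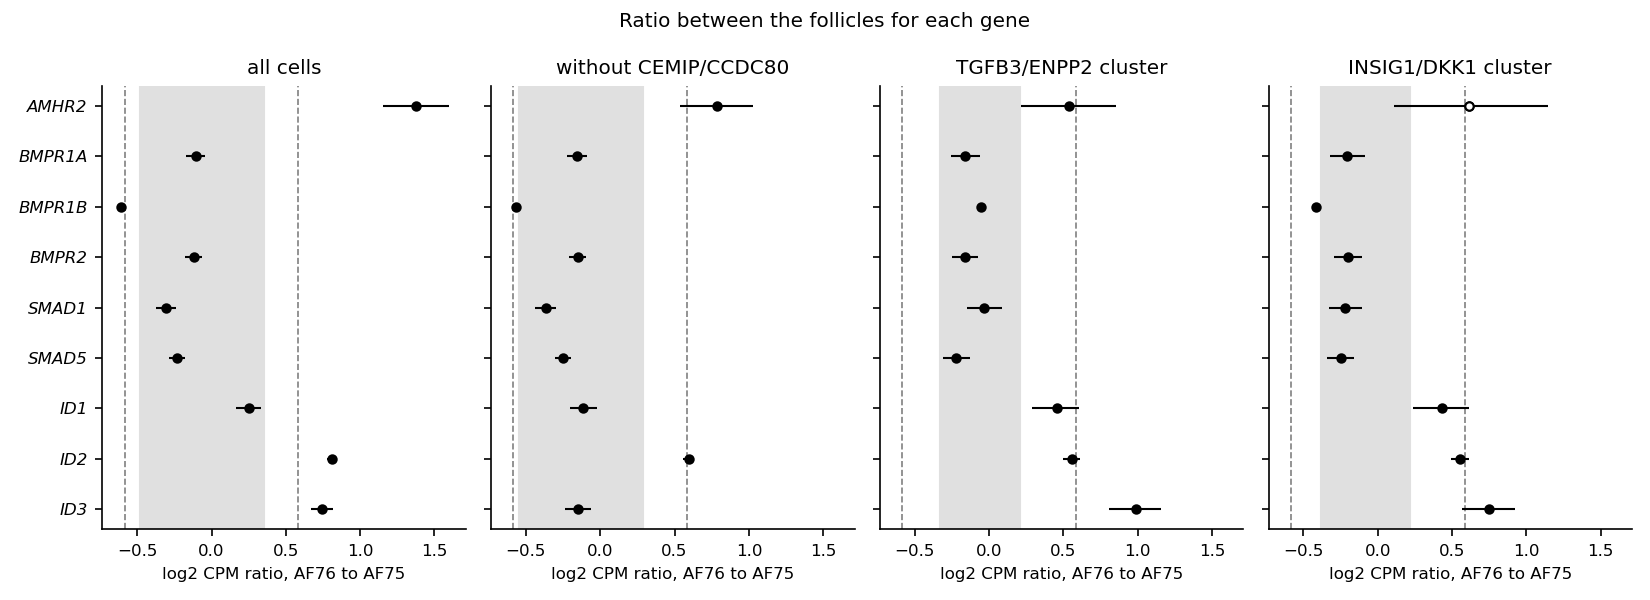
Log2 CPM ratio of AF76 to AF75 for 9 genes in 4 sets of cells, with bars for the exact 95% interval, dashed lines at a ratio of 1.5 in each direction and grey bands for the middle 90% of all measured genes. An open point marks a gene with fewer than 200 UMIs in both follicles. ID3 stands at 0.74 over all cells, at -0.15 without the CEMIP/CCDC80 cluster and at 0.98 in the TGFB3/ENPP2 cluster.

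From cell to cell the correlation of the ID genes varied with the cluster. On thinned UMIs (log scale) Pearson's r between ID1 and ID3 was 0.19 over 9343 cells of AF75 and 0.25 over 7738 cells of AF76, and 0.32 within the SLC10A4/ARPP21 cells of AF75. In the same 3 sets of cells it was 0.03, 0.19 and 0.08 for ID1 and ID2. For ID2 and ID3 it was 0.06, 0.29 and 0.11. Within the 132 SLC10A4/ARPP21 cells of AF76 r was 0.43 for ID1 and ID3, 0.41 for ID1 and ID2 and 0.26 for ID2 and ID3. Within the CEMIP/CCDC80 cluster (594 cells) it was 0.29 for ID1 and ID2, 0.23 for ID1 and ID3 and 0.29 for ID2 and ID3. Within the TGFB3/ENPP2 cluster none of these pairs passed 0.05 in either follicle. In AF75, 17.4% of cells with ID1 also had ID3, against 5.46% of cells without ID1. Receptors and ID genes had r between -0.09 and 0.10 over all cells, and between -0.22 (BMPR1B and ID3) and 0.24 (BMPR1A and ID1) within the 132 SLC10A4/ARPP21 cells of AF76. The cells of a follicle share 1 library, and most counts are 0 or 1, so these values are descriptive.

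Of the 56 other pathway genes that were listed by role, 53 were in the gene list, and FKBP1A, DAND5 and FOXL2 are not analysed here. Over all cells 29 were measured, with 1 past the threshold upward (WT1), 1 downward (SOX9) and a median log2 ratio of -0.09, beside 5.65% of all genes past it. Both are regulators of AMH transcription. Without the CEMIP/CCDC80 cluster 28 were measured, with 0 past the threshold upward and 3 downward (SOX9, SKIL at 0.644 and CHRDL1, a BMP binder, at 0.639), a median log2 ratio of -0.2, beside 5.39% of all genes. The call of WT1 was lost there, with 137 UMIs left in AF76. SOX9 had 922 UMIs in AF75 and 98 in AF76, or 8.29 and 0.8997 CPM, a ratio of 0.109 (0.0872 to 0.134). Of these UMIs, 75.9% lay in the SLC10A4/ARPP21 cluster in AF75, and 71.4% in the CEMIP/CCDC80 cluster in AF76. WT1 had 119 and 302 UMIs, or 1.07 and 2.77 CPM (2.59, 2.09 to 3.23), and 54.6% of its UMIs in AF76 lay in the CEMIP/CCDC80 cluster. GATA4, the AMH regulator with the most UMIs, had 68.11 and 49.35 CPM (0.724, 0.699 to 0.75).

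The gene with the most UMIs in each further role did not pass the threshold between the follicles over all cells. Among the ligands this was GDF9, an oocyte factor in most species, with 4.95 and 5.17 CPM (1.04, 0.926 to 1.18). It was ACVR1, also called ALK2, among the other receptors (26.32 and 25.97 CPM), and RGMA, a BMP co-receptor (13.62 and 17.91 CPM, ratio 1.32). SMAD4, the shared partner of receptor SMADs, had 70.62 and 51.07 CPM (0.723, 0.699 to 0.749). SKIL, a corepressor that holds SMADs in check, had 173.5 and 127.2 CPM (0.733, 0.717 to 0.749), and FSTL3, a secreted binder of activins and BMPs, 422.0 and 379.5 CPM (0.899). ID4 among the other targets had 9.69 and 7.65 CPM (0.789), and TCF3 among the E proteins 46.48 and 46.53 CPM (1.0).

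The list was also compared between a cluster and the other cells of its follicle. In the CEMIP/CCDC80 cluster 18 of 25 measured genes were past the threshold upward and 2 downward (RGMA 0.187 and FSTL3 0.261 times the other cells), with a median log2 ratio of 0.9, and this stands beside the 53.0% of all genes. The largest ratios were those of BMPER (7.09), which binds BMPs outside the cell, TGFBR3 (6.51), a co-receptor, TCF4 (5.45), an E protein, and BAMBI (4.75), a decoy receptor. SMAD9, the third receptor SMAD of the BMP branch, was 3.18 times the other cells, and SMAD4 1.86 times. The inhibitors SMAD6 and SMAD7, both targets and brakes of the pathway, were too low to be called measured, and 10 of the 13 SMAD6 UMIs and 24 of the 36 SMAD7 UMIs of AF76 lay in this cluster. In AF75, 102 of the 160 SMAD7 UMIs lay in the SLC10A4/ARPP21 cluster (6.08 CPM, against 0.614 CPM in the other cells). SMAD6 and SMAD7 were named after their values had been seen.

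In the SLC10A4/ARPP21 cluster of AF75, 5 of 27 measured genes were past the threshold upward and 7 downward, with a median log2 ratio of -0.12, beside the 27.7% of all genes. Those upward were SOX9 (17.8 times the other cells), SKIL (2.62), GATA4 (2.1), TCF4 (1.57) and SMAD4 (1.5). Those downward were the ligand GDF5 (0.118), RGMA (0.244), SMAD9 (0.32), the BMP binders TWSG1 (0.443), NBL1 (0.458) and BMPER (0.513), and FSTL1 (0.598). SMAD1 and SMAD9, both receptor SMADs, thus differed in opposite directions there. Between the follicles, where 19.1% of all genes were past the threshold in this cluster, 4 of 17 measured genes of the list were higher in AF76 (SMAD9 4.17, NBL1 2.11, FSTL1 1.84 and TWSG1 1.66) and 4 were lower (SOX9 0.0653, GATA4 0.543, FSTL3 0.589 and TCF4 0.63).

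**Figure D4:**
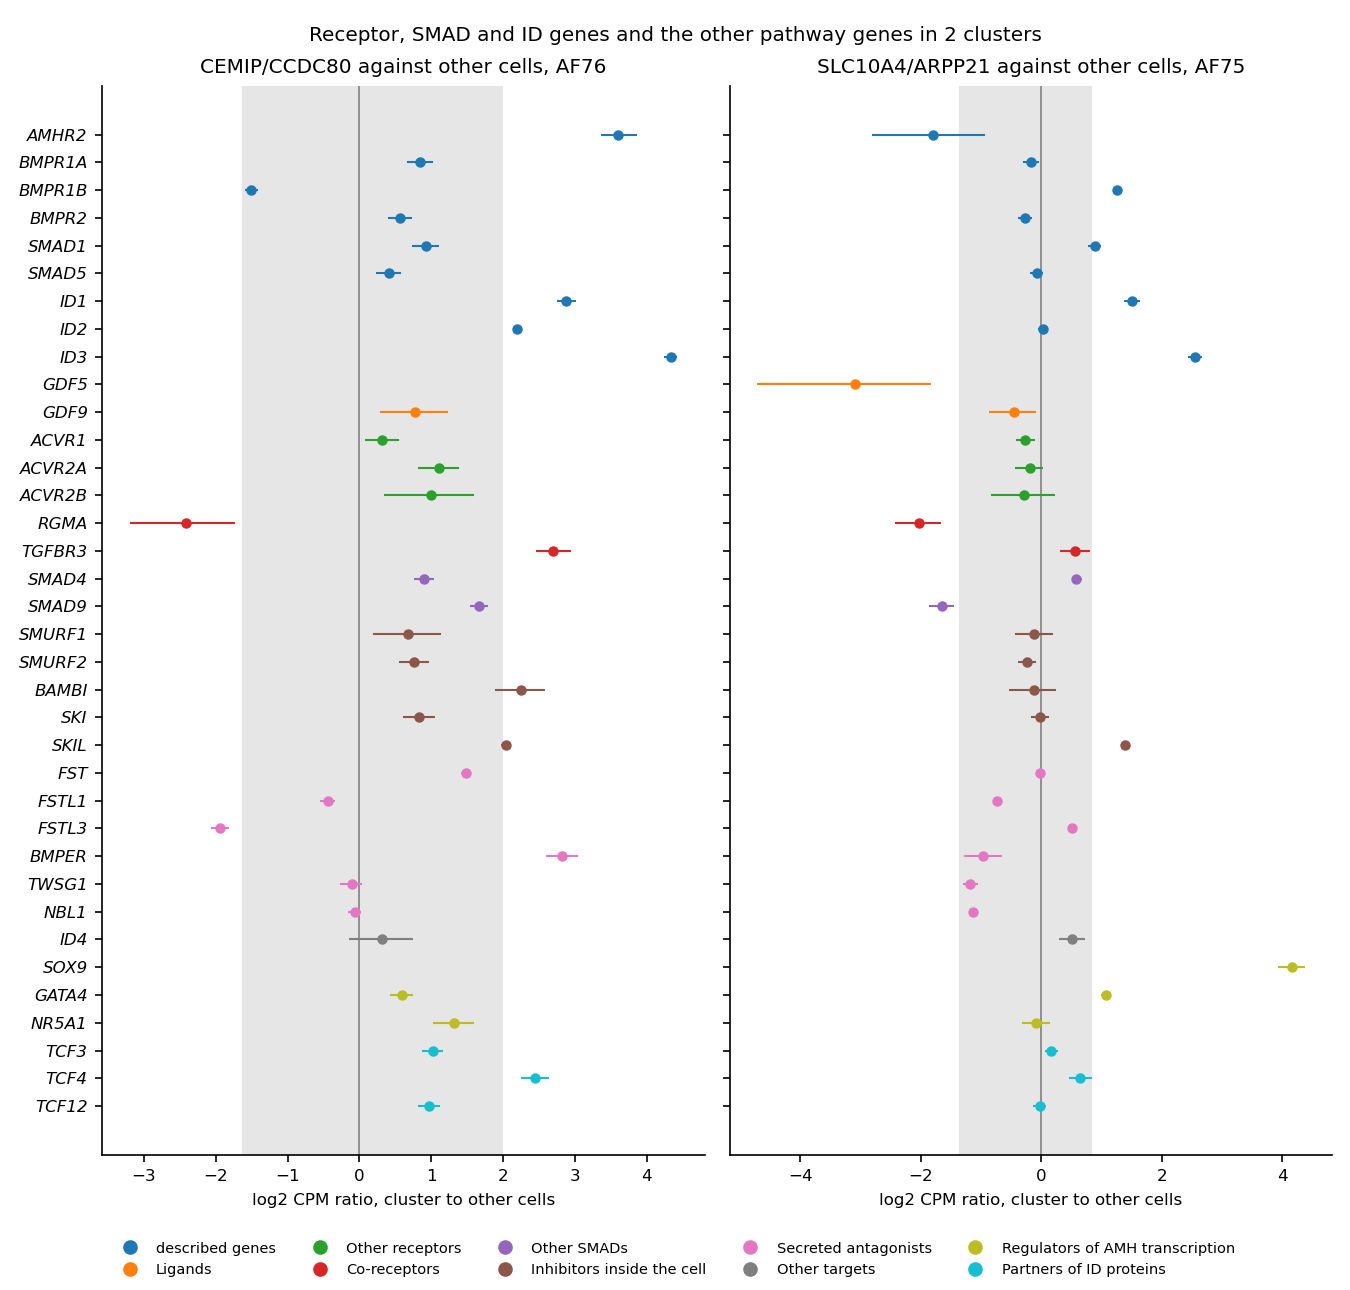
Log2 CPM ratio of a cluster to the other cells of the same follicle for the described genes and the measured genes of the pathway list, coloured by role, with bars for the exact 95% interval and grey bands for the middle 90% of all measured genes. On the left ID3 (4.33) and AMHR2 (3.61) lie furthest to the right in the CEMIP/CCDC80 cluster, and on the right SOX9 and ID3 (2.56) do so in the SLC10A4/ARPP21 cluster of AF75, where GDF5 lies furthest to the left.

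The genes whose levels were most like those of each of the described genes were sought over 17 sums of a cluster in a follicle, by Pearson's r of log2(CPM + 1). For AMHR2 these were SOD2 (0.942) and FCGRT (0.937), for BMPR1A ANKLE2 (0.953), for BMPR1B FBN2 (0.895), for BMPR2 AP2B1 (0.964), for SMAD1 ATAD2B (0.95) and for SMAD5 ZMYM1 (0.915), after a gene that the list gives by identifier only. For ID1 it was PDGFRB (0.869), for ID2 SHISAL1 (0.952) and for ID3 NAB2 (0.964). Without the CEMIP/CCDC80 sum ATAD2B, ANKLE2, PDGFRB and SHISAL1 stayed the most like (0.954, 0.925, 0.879 and 0.908), while the most like gene became ACSL4 for BMPR1B (0.948), TSTD1 for AMHR2 (0.919), KLHL8 for BMPR2 (0.964), ABI1 for SMAD5 (0.94) and NIFK for ID3 (0.937). Among the described genes AMHR2 and BMPR1B had the most opposed levels over these sums, with r of -0.844, or -0.774 without the CEMIP/CCDC80 sum. The AMHR2 sums went down to 1 UMI (SLC10A4/ARPP21 and CXCL10/RSAD2 in AF76), so this r rests in part on values near the floor. From cell to cell, on thinned UMIs and with AMHR2 in few cells, r of this pair was -0.01 in AF75 and -0.04 in AF76. The sums share libraries and differ in depth, and these values are descriptive.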

How the data were processed

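Somatic cells of 2 antral follicles of 1 pig were measured with 10x Genomics 3′ single-cell RNA sequencing, 1 library each. The names of the deposited data, not the labels, link AF75 and AF76 to antral follicles 1 and 2. The authors deposited whole UMI counts per gene and barcode, made with CellRanger 6.0.2 on Sscrofa11.1 with no normalization. Where the list gives an identifier in place of a symbol (7356 rows), 1042 were named from RefSeq. The described genes and all lists were chosen with earlier results of these data known.

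Barcodes with 2000 to 5000 genes and under 7% mitochondrial UMIs (13 genes) were used. Doublets were not removed, and an alternative removed the 6.9% with the highest score, which found 39.6% (AF75) and 41.0% (AF76) of artificial doublets. Under R 4.3.3, Seurat 5.3.0 with Matrix 1.6.5 and SeuratObject 5.2.0 integrated the follicles by anchors over 2000 variable genes, without 63 genes of the pathway, and clustered on 40 components at a resolution of 0.44, the lowest that gave 9 clusters. UMIs were summed over cells. For shares of cells the Clopper-Pearson method gave the 95% interval, for CPM the exact Poisson limits, and for ratios of summed UMIs the exact conditional limits. Where no UMI was counted, 3 counts served as the upper limit. With 1 library per follicle no test was made. The calculation was tested on simulated data. Python 3.11.15 was used with scikit-learn 1.9.0, scipy 1.17.1, matplotlib 3.10.9, pandas 2.3.3 and numpy 2.4.6.

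All 10 genes are named, together with the listed pathway genes past a ratio of 1.5 over all cells, the one with the most UMIs in each role, and the genes most like a described gene. Pathway genes past the threshold inside a cluster, and those with alternative borders of a cluster, were named after their values had been seen. Alternatives were other limits on genes and mitochondrial UMIs, all barcodes, doublets removed, thinning to 5000 UMIs, other totals, the mean of per-cell CPM, 6 clusters, no integration and another random seed. Leaving out the CEMIP/CCDC80 cluster, the comparisons of a cluster with other cells, and leaving out the cell with most UMIs of a gene, were added after the data were seen.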

Additional observations from a re-analysis of the deposited data

Results flagged for a closer look

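The ratio of AF76 to AF75 for BMPR1B differed between clusters. It was 0.585 in SLC10A4/ARPP21 and 0.565 in TOP2A/CDCA8, while it was 1.54 in CXCL10/RSAD2, which has 25 and 22 cells. That value rested on 1 cell of AF76 with 72 of 226 UMIs, and was 1.18 (0.929 to 1.51) with the cell that held most BMPR1B UMIs left out in each follicle. The cumulus marker VCAN was lower and the mural marker AREG higher in AF76 in 8 of the 8 shared clusters, as in SLC10A4/ARPP21 (VCAN 7126 and 1686 CPM, AREG 382.1 and 3732 CPM) and in CXCL10/RSAD2 (VCAN 430.9 and 188.9 CPM, AREG 5161 and 5303 CPM). For ID3 the ratio was 1.98 in TGFB3/ENPP2 and 1.68 in INSIG1/DKK1, against 0.543 in SLC10A4/ARPP21. The last value depends on the border of the cluster, since ID3 had 115.0 CPM in AF75 and 116.3 CPM in AF76 in the matched cluster with 6 clusters, and 110.2 and 89.35 CPM with another random seed. With 1 library per follicle, these differences between clusters were not tested.

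Barcodes outside the limits of the analysis carried ID transcripts in AF76. The 7705 barcodes left out there hold 14.5% of its UMIs, with 111.4 CPM of ID3 (3.12 times the cells, 2.96 to 3.29) and 44.93 CPM of ID1 (2.01 times, 1.85 to 2.17), and they hold 34.6% of the ID3 UMIs of the library. CEMIP was at 132.6 CPM in them, 2.88 times the cells. In the 4927 barcodes left out of AF75, ID3 was at 14.52 CPM and ID1 at 15.79 CPM. CEMIP was at 1.128 CPM in these (16 UMIs), 6.97 times the cells of AF75 (3.33 to 14.5).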

How the results depend on the processing

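Of 1405 values recomputed under an alternative, 1158 stayed within their counting interval or, for a count of genes, within 1.5 times, 245 moved and 2 reversed, which means that a ratio past the threshold changed sign. The 4 genes past the threshold over all cells became 2 when the CEMIP/CCDC80 cluster was left out, where the log2 ratio of ID3 turned from 0.74 to -0.15 and that of ID1, not past the threshold, from 0.25 to -0.11, and stayed 4 under the 7 other settings. In the largest cluster the count of 1 became 2 with cells thinned to 5000 UMIs and 2 with the mean of per-cell CPM. The count of 5 for the SLC10A4/ARPP21 cluster of AF75 became 3 with no integration, where the log2 ratio of ID1 turned to -0.07, and 4 with 6 clusters and with another random seed, where the call of SMAD1 was lost. The count of 7 for the CEMIP/CCDC80 cluster became at most 8. The cause of each change was not tested, apart from the sets of cells that the alternatives themselves change. Over all cells the log2 ratio ranged from 0.78 to 1.86 for AMHR2, from 0.59 to 1.01 for ID2, from -0.15 to 1.32 for ID3 and from -0.67 to -0.57 for BMPR1B. For AMHR2 in the SLC10A4/ARPP21 cluster of AF75 it ranged from -2.56 to -0.82 against the other cells. No paired analysis was possible because each follicle gave 1 library. With the cell that held most UMIs of a gene left out in each follicle, 7 of 69 ratios between the follicles within a cluster had an interval that moved onto or off 1. Levels under about 200 UMIs in a group, as for AMHR2 in most clusters, are limited by depth.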
